A study of Mus musculus with 34 samples.

Results

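Muscle that lacks both the insulin receptor and the IGF-1 receptor was compared with muscle of floxed control mice across all genes. The comparison takes the libraries whose labels read MIGIRKO and IRIGFRlox, which are 9 of the 34 libraries of the series. MIGIRKO mice (n = 6) carry floxed alleles of both receptor genes and an Acta1-Cre transgene, in which the promoter of skeletal alpha-actin drives the recombinase in muscle fibers. IRIGFRlox mice (n = 3) were floxed littermate controls of the same colony, so the floxed alleles are shared and the groups differ by the transgene and the recombination it causes. The animals were males on a mixed background of C57Blk6, C57Blk6J and 129 strains, and both groups were reported as heterozygous for Nnt, a gene of mitochondrial redox balance that differs between these strains. Their age is not given in the sources used here. Each library held the RNA of a powder mixed from quadriceps and gastrocnemius, so every cell type of the tissue is in it, while the Cre acts in fibers.

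The MIGIRKO libraries held 4652877 to 5969877 counts each and the IRIGFRlox libraries 5279473 to 7581198. Levels are given in CPM, a gene's counts per 1000000 counts of its library, scaled by a trimmed mean of M values (TMM) factor. Defining genes of muscle fibers were abundant throughout, with at least 17142 CPM of Acta1 and 2546 CPM of Ckm in each of the 9 libraries. Changes are log2 differences, MIGIRKO minus IRIGFRlox, with a standard error (SE), and a gene was called when edgeR's quasi-likelihood test gave an adjusted p under 0.05. Each library is labelled as its own sample and was taken as 1 mouse, and the labels give no pairs of littermates. The p-values rest on the spread between mice within all 8 groups of the series, fitted together, not within the compared groups alone. The library numbers in the labels fall into 6 runs of close numbers, of which 3 hold libraries of both groups (MIGIRKO 1, 2 and 6 with the 3 controls). What the runs stand for is not given in the sources used here.

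Insulin and the insulin-like growth factors IGF-1 and IGF-2 bind 2 closely related receptor tyrosine kinases. In muscle these receptors act through IRS proteins, PI3 kinase and Akt. That chain brings the glucose transporter GLUT4 to the cell surface, favours glycogen and protein synthesis, and keeps the FoxO transcription factors out of the nucleus, where they switch on genes of protein breakdown. Loss of both receptors in mouse muscle is known to give small muscles.

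Insr, the insulin receptor gene (ENSMUSG00000005534, chromosome 8, 3122061 to 3279617, GRCm38), had 40.7, 52.2 and 69.8 CPM in MIGIRKO (lowest, median and highest), against 171, 159 and 191 CPM in IRIGFRlox. Its log2 change was -1.68 ± 0.15 (adjusted p = 2.03e-09), the groups did not overlap, and MIGIRKO 6 was the lowest library. Igf1r, the IGF-1 receptor gene (ENSMUSG00000005533, chromosome 7, 67952827 to 68233668), had 15.1, 17.3 and 25.7 CPM in MIGIRKO, against 20.3, 18.9 and 16.5 CPM in IRIGFRlox. Its change was 0.00 ± 0.21 (adjusted p = 0.993; -0.11 without MIGIRKO 6, described below), and the ranges overlapped. Other cell types of the tissue keep both genes, and counts over a whole gene also take in reads from a transcript whose floxed exon was removed, so neither value measures the recombination itself. In RNA of whole muscle, a change in the number of cells of a type and a change in RNA per cell cannot be told apart. In the other knockouts of the series, each over its own floxed controls, Insr changed by -1.83 in MIRKO, -0.17 in MIGF1RKO and -1.99 in QKO, and Igf1r by 0.50, -0.75 and -1.09 (MIRKO mice lack the insulin receptor, MIGF1RKO mice the IGF-1 receptor, and QKO mice both and the FoxO factors). The QKO change of Igf1r differed from the MIGIRKO change by -1.09 (adjusted p = 0.0417). Foxo1, a main FoxO factor of muscle, had 22.0, 46.4 and 74.0 CPM in MIGIRKO, against 81.1, 76.1 and 30.6 CPM in IRIGFRlox, and its change of -0.40 ± 0.33 was not called (adjusted p = 0.369). Foxo4 fell by 0.73 (adjusted p = 0.00104), but was not called when library totals were used without a scaling factor (-0.25, adjusted p = 0.195). Nnt had 32.5, 75.4 and 143 CPM in MIGIRKO, against 32.2, 113 and 146 CPM in IRIGFRlox and was not called (-0.29 ± 0.45, adjusted p = 0.659).

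The library labelled MIGIRKO 6 stood apart from the others of its group. Over 8602 genes with a mean log2 CPM above 3, its root mean square log2 distance was 0.500 to the mean of MIGIRKO 1 to 5 and 0.392 to the mean of MIRKO 1 to 3, the mice lacking the insulin receptor alone. For MIGIRKO 1 to 5, each set against the mean of the other 4, these distances were 0.286 to 0.362 and 0.458 to 0.551. MIRKO 4 showed the opposite, 0.277 to MIGIRKO 1 to 5 and 0.530 to MIRKO 1 to 3. Of the 4446 genes called without MIGIRKO 6, this library lay on the same side of IRIGFRlox as MIGIRKO 1 to 5 for 92.4%, with a median of 0.770 of their change. Results are given with all 6 libraries. They are also given without it where the call, the direction or, by over 1.5-fold, the size of a named gene differs, or where a list's count of at least 3 called genes does.

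Of 13646 genes tested, 4603 (33.7%) were called, 2321 higher (17.0%) and 2282 lower (16.7%) in MIGIRKO. The change was at least 2-fold in 2093 of them (15.3%). The CPM ranges of the groups did not overlap in 4086 genes (29.9%). Each later statement that the groups did not overlap is to be read beside this share. Without MIGIRKO 6, 4446 of 13543 genes passed the test (32.8%), with 2136 higher (15.8%) and 2310 lower (17.1%), and 4090 of the 4603 (88.9%) were called in the same direction in both fits. The split between higher and lower depended on the scaling. TMM factors lay between 1.17 and 1.32 for MIGIRKO libraries and between 0.866 and 0.887 for IRIGFRlox libraries. With library totals and no factor the median change of all genes was 0.53 in place of 0.04, a shift of 0.49. On that scale 7002 genes were called (51.3%), 6314 higher (46.3%) and 688 lower (5.04%). The 2321 genes called higher under TMM were all still called higher, while of the 2282 called lower 688 were still called lower, 357 had the opposite sign and none was called in the opposite direction. Where 2 counts are given for library totals below, they are genes called higher and genes called lower. Such counts are to be read beside the 46.3% and 5.04% of all genes on that scale. Myh4, the fast myosin heavy chain that was among the most abundant messages, took 2.07% to 4.10% of the counts in MIGIRKO and 6.50% to 6.91% in IRIGFRlox.

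**Figure D1:**
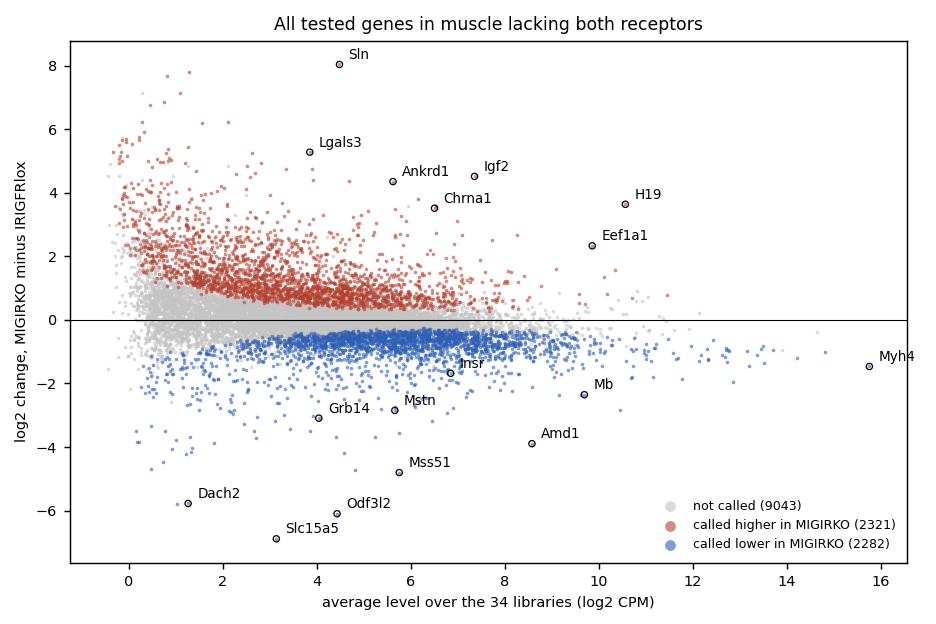
Log2 change (MIGIRKO minus IRIGFRlox) against average level (log2 CPM over the 34 libraries) for each of 13646 tested genes, with the 2321 called higher in red, the 2282 called lower in blue and selected genes circled. Myh4 lies furthest right and below 0, at -1.47, while H19 and Eef1a1 lie above 0, at 3.64 and 2.33.

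Among genes with an average log2 CPM of at least 1, the 15 largest increases included genes of calcium handling, of myoblast fusion and of the fetal acetylcholine receptor. Sln encodes sarcolipin, a small inhibitor of the calcium pump that adult fast muscle of mice barely makes. It had 2.47, 53.8 and 165 CPM in MIGIRKO, against 0, 0.383 and 0.428 CPM in IRIGFRlox, a log2 change of 8.04 ± 1.89 (adjusted p = 0.00193), and the lowest MIGIRKO value was that of MIGIRKO 6. It was not called by limma-voom (adjusted p = 0.156), and its change was 7.37 without IRIGFRlox 1, whose count was 0. Mymk, myomaker, the membrane protein of myoblast fusion, had 1.10, 6.70 and 10.2 CPM in MIGIRKO, against 0, 0.191 and 0 CPM in IRIGFRlox. Its summed counts were 248 in MIGIRKO and 1 in IRIGFRlox, a ratio of 101-fold, with a 95% exact counting interval of 18.0 to 4009.9. Dnajc5g, which encodes a cysteine-string protein, and Hephl1, a ferroxidase of the hephaestin family, had no count in the 3 IRIGFRlox libraries. Against a floor of 3 counts over that group, Dnajc5g was at least 31.1-fold and Hephl1 at least 19.6-fold higher in MIGIRKO. Lgals3, galectin-3, abundant in macrophages, changed by 5.28 ± 1.15, Krt18, a keratin, by 4.95 ± 0.98, and Slc38a1, a glutamine transporter, by 4.76 ± 0.77. Krt18 had 182 summed counts in MIGIRKO and 2 in IRIGFRlox, a ratio of 37.1-fold, with a 95% exact counting interval of 10.1 to 308.7. In all 7 of these genes every MIGIRKO library lay above every IRIGFRlox library. They were taken from the largest increases, and the groups did not overlap in 29.9% of all tested genes. For Dnajc5g this rests on 2 counts in MIGIRKO 6 (0.274 CPM).

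Among the largest decreases, Slc15a5, a member of the peptide transporter family, had 0, 0 and 0.959 CPM in MIGIRKO, against 22.3, 26.2 and 30.8 CPM in IRIGFRlox. Its log2 change was -6.89 ± 0.71 (adjusted p = 9.42e-08), and it was -8.87 without MIGIRKO 6, the library that held 7 of the group's 8 counts. Odf3l2, a relative of a sperm tail protein, had 0, 0.480 and 1.54 CPM in MIGIRKO, against 48.1, 49.9 and 19.5 CPM in IRIGFRlox, a change of -6.10 ± 0.55. Mss51, a zinc finger protein of muscle mitochondria, had 2.71, 4.56 and 6.78 CPM in MIGIRKO, against 153, 98.0 and 133 CPM in IRIGFRlox, a change of -4.80 ± 0.44 (adjusted p = 1.53e-08). For all 3 genes every MIGIRKO value lay below every IRIGFRlox value. These too were taken from the largest changes, beside 29.9% of all tested genes whose groups did not overlap. Dach2, a transcriptional repressor that in mice restrains myogenin, had 2 counts in MIGIRKO and 64 in IRIGFRlox, lower by a ratio of 78.5-fold, with a 95% exact counting interval of 20.9 to 662. Cdh4, R-cadherin, changed by -4.73 ± 0.55, and by -5.87 without MIGIRKO 6. Actr3b, an actin-nucleating protein of the Arp2/3 complex, changed by -4.19 ± 0.45.

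The nicotinic acetylcholine receptor of adult muscle consists of alpha1, beta1, delta and epsilon subunits, and fetal or denervated fibers use gamma in place of epsilon. The 4 subunits of the fetal form rose in MIGIRKO, while epsilon did not pass the test. Chrna1, alpha1 (ENSMUSG00000027107, chromosome 2, 73563215 to 73580338, GRCm38), had 53.8, 279 and 313 CPM in MIGIRKO, against 17.1, 22.4 and 22.0 CPM in IRIGFRlox, a change of 3.51 ± 0.63 (adjusted p = 1.33e-04). Chrng, gamma, had 3.83, 17.5 and 22.7 CPM in MIGIRKO, against 1.22, 0.191 and 0 CPM in IRIGFRlox, a change of 4.85 ± 0.97 (adjusted p = 3.97e-04), which was 6.98 without IRIGFRlox 1, the control with the highest level. Chrnd, delta, had 7.81, 20.3 and 24.5 CPM in MIGIRKO, against 3.51, 4.02 and 2.35 CPM in IRIGFRlox (2.49 ± 0.47, adjusted p = 1.67e-04), and Chrnb1, beta1, had 47.4, 84.2 and 110.4 CPM in MIGIRKO, against 32.7, 28.5 and 29.3 CPM in IRIGFRlox (1.45 ± 0.26, adjusted p = 9.94e-05). For each of these 4 subunits the groups did not overlap, beside 29.9% of all tested genes, and MIGIRKO 6 was the lowest of its group. Chrne, epsilon, had 12.2, 29.9 and 54.1 CPM in MIGIRKO, against 34.6, 30.6 and 21.8 CPM in IRIGFRlox (0.15 ± 0.30, adjusted p = 0.732), and here the ranges overlapped. Promoter sequences are printed for the subunits because 4 of the genes rose while epsilon did not pass the test.

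The promoter windows of the subunits hold E-boxes, the CANNTG letters that myogenic factors such as myogenin bind. Each window runs from 250 bases before to 50 bases after the gene's start in RefSeq (GRCm38.p6), 5′ to 3′ on the gene's strand, and capitals mark every CANNTG, which reads alike on both strands as a pattern. Of the 5 subunit genes 4 matched an entry. Chrna1 (chr2:73580289-73580588, minus strand), with 3 boxes of which 2 read CAGCTG:
Chrna1: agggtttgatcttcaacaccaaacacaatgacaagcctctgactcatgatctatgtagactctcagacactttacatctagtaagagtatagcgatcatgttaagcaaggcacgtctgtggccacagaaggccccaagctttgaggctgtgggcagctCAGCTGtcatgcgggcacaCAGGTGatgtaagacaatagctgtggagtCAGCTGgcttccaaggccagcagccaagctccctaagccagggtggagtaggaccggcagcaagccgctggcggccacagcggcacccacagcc
Chrng (chr1:87205561-87205860, plus strand), with 3 boxes of which 2 read CAGCTG:
Chrng: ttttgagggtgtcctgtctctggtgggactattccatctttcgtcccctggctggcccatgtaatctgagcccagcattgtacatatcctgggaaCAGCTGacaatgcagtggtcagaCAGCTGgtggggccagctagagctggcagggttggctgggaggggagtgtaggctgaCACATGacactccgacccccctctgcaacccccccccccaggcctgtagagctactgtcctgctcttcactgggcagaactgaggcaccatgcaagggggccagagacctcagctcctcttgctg
Chrnb1 (chr11:69795888-69796187, minus strand), with 3 boxes and no CAGCTG:
Chrnb1: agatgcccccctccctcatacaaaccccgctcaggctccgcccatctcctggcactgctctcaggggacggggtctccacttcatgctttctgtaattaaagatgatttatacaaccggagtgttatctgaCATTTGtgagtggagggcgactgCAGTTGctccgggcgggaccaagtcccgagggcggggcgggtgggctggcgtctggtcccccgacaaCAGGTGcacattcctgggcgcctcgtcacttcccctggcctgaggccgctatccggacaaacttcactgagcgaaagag
Chrne (chr11:70619145-70619444, minus strand), with 1 box, which reads CAGCTG:
Chrne: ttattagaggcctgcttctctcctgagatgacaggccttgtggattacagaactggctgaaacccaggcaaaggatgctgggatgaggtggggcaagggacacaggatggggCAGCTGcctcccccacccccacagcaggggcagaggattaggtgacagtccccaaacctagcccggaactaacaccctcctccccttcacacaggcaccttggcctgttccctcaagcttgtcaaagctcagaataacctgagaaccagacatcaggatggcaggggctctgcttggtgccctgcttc
Of all 32851 promoter windows in that table, 16.3% held CAGCTG and 72.3% held any CANNTG. Among genes with an entry, CAGCTG was in a window of 371 of 1753 called higher (21.2%), 343 of 1761 called lower (19.5%) and 1907 of 10296 tested genes (18.5%). The letters are thus present beside a subunit that rose and beside one that did not, and a match is a description of the letters, not of binding.

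Other genes of the neuromuscular junction went different ways. Of 19 tested genes of the receptor and junction, 11 were called higher and 3 lower, with a median of 0.56, against 17.0%, 16.7% and 0.04 over all genes, and with library totals 14 and 1 were called. Musk, the kinase that gathers receptors at the synapse, had 10.8, 15.0 and 19.9 CPM in MIGIRKO, against 27.0, 26.6 and 28.0 CPM in IRIGFRlox. It fell by 0.83 (adjusted p = 0.00471), and was not called with library totals (-0.34, adjusted p = 0.224). Scn4a, the adult muscle sodium channel, had 491, 559.5 and 707 CPM in MIGIRKO, against 1370.4, 1149.9 and 1062 CPM in IRIGFRlox and fell by 1.07 (adjusted p = 9.07e-06). The groups did not overlap for this channel. Sytl2, a vesicle adaptor, changed by 2.12 ± 0.28.

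Regulators that respond to loss of nerve activity went both ways. Myog, myogenin, the transcription factor that couples inactivity to receptor genes, had 16.2, 22.6 and 31.8 CPM in MIGIRKO, against 3.21, 2.49 and 1.50 CPM in IRIGFRlox, a change of 3.27 ± 0.47 (adjusted p = 6.59e-06). Runx1, a factor that protects denervated fibers in mice, had 29.9, 34.0 and 45.9 CPM in MIGIRKO, against 3.36, 3.44 and 4.49 CPM in IRIGFRlox, a change of 3.29 ± 0.52 (adjusted p = 2.75e-05). For both, every MIGIRKO library lay above every IRIGFRlox library, beside 29.9% of all tested genes whose groups did not overlap. Ankrd1, a titin-binding stress protein, had 99.4, 142 and 216 CPM in MIGIRKO, against 3.97, 6.70 and 11.1 CPM in IRIGFRlox (4.35 ± 0.74, adjusted p = 8e-05). Ankrd2, its relative, changed by 1.48 ± 0.31, Csrp3, muscle LIM protein, by 2.75 ± 0.53, Ncam1, a cell adhesion molecule of denervated fibers, by 1.53 ± 0.25, and Myf6, MRF4, by 1.08 ± 0.25. Myod1 had 31.0, 40.8 and 49.4 CPM in MIGIRKO, against 24.3, 17.8 and 26.5 CPM in IRIGFRlox and was not called (0.82 ± 0.36, adjusted p = 0.0806), although every MIGIRKO library lay above every control. It was called with library totals (1.31), with the runs as a block, with the 2 groups alone, with all 12 floxed libraries as control and without MIGIRKO 6 and MIRKO 4. Mef2c, a factor of the muscle gene program, fell by 1.00 (adjusted p = 1.88e-05). Of 30 tested myogenic and denervation regulators, 12 were called higher and 7 lower (median 0.47, with library totals 17 and 4).

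Sarcomere genes of embryonic and neonatal muscle rose in MIGIRKO. Myh3, embryonic myosin, had 25.7, 81.4 and 122 CPM in MIGIRKO, against 5.95, 7.84 and 8.77 CPM in IRIGFRlox (3.44 ± 0.70, adjusted p = 5.22e-04). Myh8, neonatal myosin, had 17.4, 247 and 464 CPM in MIGIRKO, against 21.1, 19.1 and 13.5 CPM in IRIGFRlox (3.80 ± 0.91, adjusted p = 0.00221), and the 17.4 CPM of MIGIRKO 6 lay within the IRIGFRlox range while MIGIRKO 1 to 5 lay at 188 to 464. Myl4, the embryonic light chain, changed by 3.16 ± 0.76, Tnnt2, the troponin T of heart and fetal muscle, by 2.37 ± 0.53, and Nes, nestin, by 0.93 ± 0.17. Actc1, cardiac actin, had 1024, 1564 and 2450.2 CPM in MIGIRKO, against 1014, 1072 and 529 CPM in IRIGFRlox and was not called (0.90 ± 0.48, adjusted p = 0.149). Xirp1, a repair protein of the sarcomere, rose by 1.26 (adjusted p = 0.00539), whereas its relative Xirp2 fell by 1.25 (adjusted p = 3.4e-04). Of 23 tested genes of the embryonic sarcomere and growth, 15 were called higher and 1 lower, with a median of 0.93. Reads of near-identical myosin genes could be split by the authors' counting, so single myosin values are uncertain. Of 13 tested satellite cell markers 5 were called higher and none lower (median 0.58), and Pax7, which defines these cells, was not called (0.52 ± 0.30, adjusted p = 0.176).

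**Figure D2:**
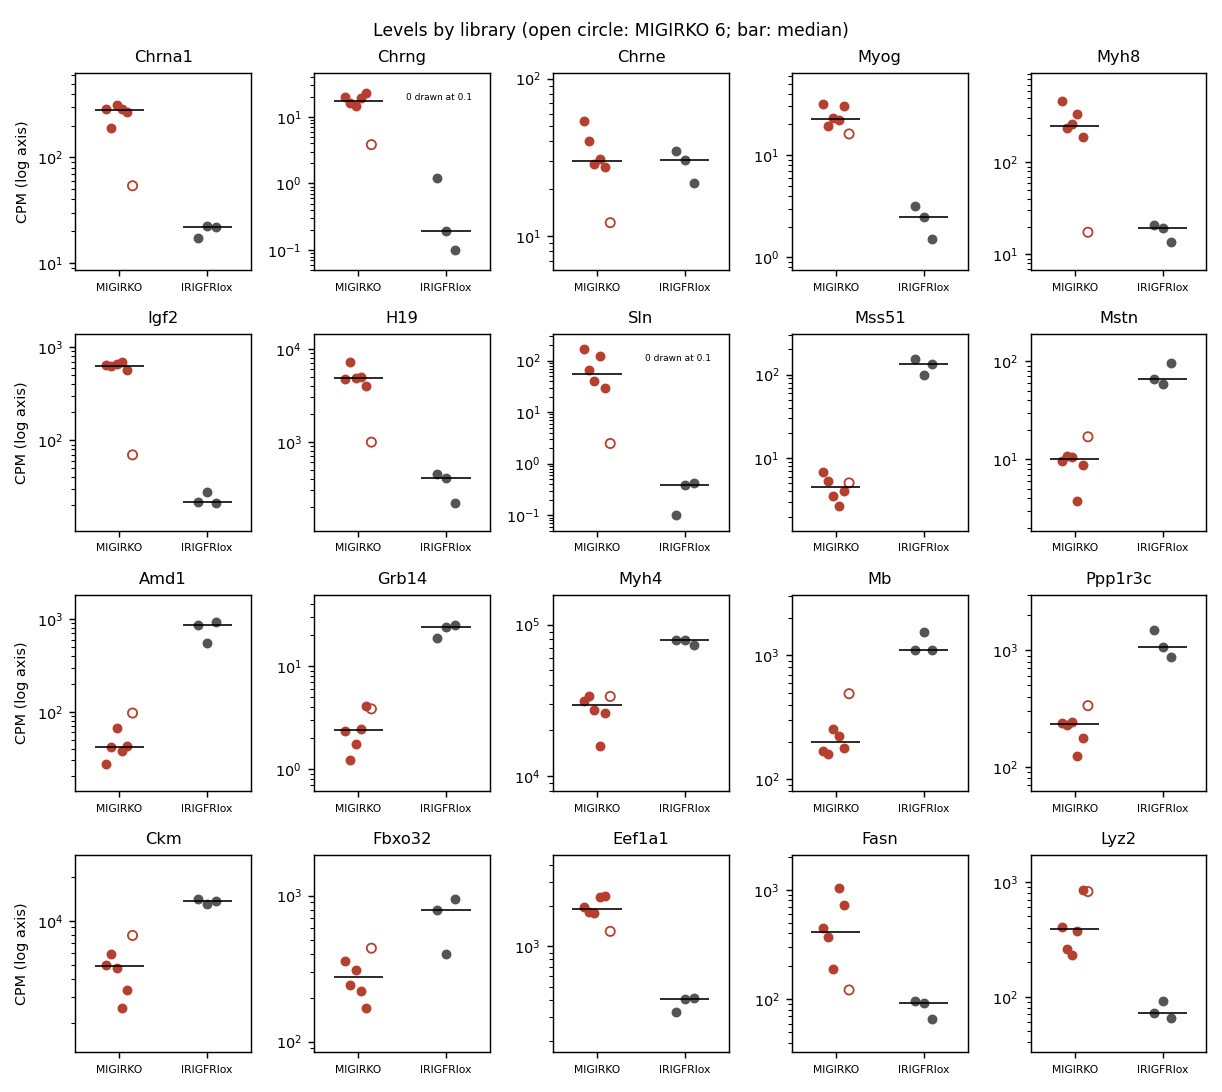
CPM on a log axis in each library for 20 genes, MIGIRKO left (MIGIRKO 6 as an open circle) and IRIGFRlox right, with bars at the medians. Chrna1, Myog, Igf2 and Sln lie higher in all 6 MIGIRKO libraries, Mss51, Mstn, Amd1 and Mb lower, and the groups overlap for Chrne and Myh8 and, through 1 control, for Fbxo32.

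IGF-2 is a fetal growth factor whose gene is imprinted, expressed from the paternal copy, and it shares a regulated domain with H19, a noncoding RNA expressed from the maternal copy. Both rose in MIGIRKO. Igf2 (ENSMUSG00000048583, chromosome 7, 142650766 to 142666816, GRCm38) had 69.8, 635 and 695 CPM in MIGIRKO, against 21.8, 27.9 and 21.4 CPM in IRIGFRlox, a change of 4.51 ± 0.81 (adjusted p = 1.34e-04). H19 had 989, 4789 and 7219 CPM in MIGIRKO, against 453, 403 and 221 CPM in IRIGFRlox, a change of 3.64 ± 0.66 (adjusted p = 1.36e-04). For Igf2 MIGIRKO 1 to 5 lay at 563 to 695 CPM and MIGIRKO 6 at 69.8 CPM, above the 3 controls. Of 18 tested imprinted growth genes 13 were called higher and none lower, with a median of 1.19 and, without MIGIRKO 6, 1.21. The members were chosen with earlier results of these data known. Slc38a4, a transporter that is imprinted in mice, is not in this list and was called lower, as given below. Peg3, a paternally expressed zinc finger gene, had 109, 283 and 515 CPM in MIGIRKO, against 48.4, 43.6 and 48.8 CPM in IRIGFRlox (2.68 ± 0.50), Meg3, a maternally expressed noncoding RNA, changed by 1.69 ± 0.36, and Cdkn1c, the cyclin-dependent kinase inhibitor p57, by 1.72 ± 0.37.

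Other members of the IGF system moved both ways, 6 higher and 2 lower of 13 tested (median 0.52). Igf1 had 63.9, 97.0 and 128 CPM in MIGIRKO, against 51.7, 64.7 and 55.2 CPM in IRIGFRlox and rose by 0.72 (adjusted p = 0.0114). It was not called without IRIGFRlox 1 (0.65, adjusted p = 0.0641) nor within the library runs that hold both groups (0.39, adjusted p = 0.227). Igfbp5, an IGF-binding protein of muscle differentiation, had 533, 614 and 764 CPM in MIGIRKO, against 2671, 1894 and 2112 CPM in IRIGFRlox and fell by 1.83 (adjusted p = 6.48e-09). Igfbp4 rose by 0.88, and Ghr, the growth hormone receptor, fell by 1.22 (adjusted p = 2.82e-06).

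Of 41 tested genes of the chain below the receptors, 11 were called higher and 9 lower, with a median of 0.00, and with library totals 20 and 3. The shares of this chain were 26.8% and 22.0%, against 17.0% and 16.7% of all genes. With library totals 48.8% were called higher, near the 46.3% of all genes. Grb10, an imprinted adaptor that dampens both receptors, had 136, 259 and 288 CPM in MIGIRKO, against 113, 108 and 99.0 CPM in IRIGFRlox and rose by 1.18 (adjusted p = 0.00152). Grb14, its relative, which inhibits the insulin receptor kinase, had 1.21, 2.38 and 4.06 CPM in MIGIRKO, against 18.6, 23.9 and 24.8 CPM in IRIGFRlox and fell by 3.09 (adjusted p = 1.43e-08). The groups did not overlap for either adaptor, beside 29.9% of all tested genes. Irs1 was not called (-0.31 ± 0.19, adjusted p = 0.206), while Irs2, the other main substrate of the receptors, rose by 0.82 (adjusted p = 0.00541). Akt1 was not called (0.28 ± 0.16, adjusted p = 0.175), and Akt2, the Akt form tied to glucose uptake, rose by 0.53 (adjusted p = 0.005). For Akt2 MIGIRKO 6, at 146.4 CPM, lay within the control range of 132 to 146.8 CPM, and MIGIRKO 1 to 5 lay at 180 to 237 CPM. Tbc1d1, a Rab regulator that holds GLUT4 inside the cell, had 16.3, 19.6 and 31.4 CPM in MIGIRKO, against 74.9, 68.1 and 117 CPM in IRIGFRlox and fell by 2.00 (adjusted p = 1.96e-06), while its relative Tbc1d4 was not called (0.50 ± 0.22, adjusted p = 0.0732). Of 14 FoxO factors and partners 2 were called higher and 3 lower, with a median of -0.17 that was 0.32 with library totals (6 and 1 called). These shares were 14.3% and 21.4%, against 17.0% and 16.7% of all genes. Foxo3 had 59.2, 113 and 151 CPM in MIGIRKO, against 89.0, 98.9 and 57.5 CPM in IRIGFRlox and was not called (0.41 ± 0.23, adjusted p = 0.174).

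Myostatin, a secreted factor that limits muscle mass, and its regulators changed in both directions. Mstn, myostatin, had 3.74, 10.2 and 17.0 CPM in MIGIRKO, against 65.5, 58.5 and 95.0 CPM in IRIGFRlox, a change of -2.85 ± 0.37 (adjusted p = 1.96e-06). Fst, follistatin, which binds and blocks myostatin, had 20.7, 48.3 and 60.8 CPM in MIGIRKO, against 14.3, 13.2 and 17.3 CPM in IRIGFRlox, a change of 1.61 ± 0.28 (adjusted p = 7.19e-05). The groups did not overlap for either gene, beside 29.9% of all tested genes. Acvr1b, an activin and myostatin receptor, fell by 1.40 (adjusted p = 3.49e-05), and Smad3, a transcription factor below it, fell by 1.06 (adjusted p = 9.77e-05). Of 33 tested genes of myostatin, activin and BMP signalling 8 were called higher and 8 lower (median -0.03, with library totals 16 and 5). That is 24.2% each way, against 17.0% and 16.7% of all genes. With library totals 48.5% were called higher, near the 46.3% of all genes. Of 23 tested myokines and secreted factors 7 were called higher and 6 lower (median 0.52, with library totals 13 and 3). Ostn, musclin, had 0.604, 1.47 and 3.42 CPM in MIGIRKO, against 22.9, 11.5 and 22.5 CPM in IRIGFRlox and fell by 3.42 (adjusted p = 1.98e-07), and Fndc5, the irisin precursor, fell by 1.60 (adjusted p = 3.32e-07).

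Genes of the fast sarcomere were lower in MIGIRKO. Myh4, the myosin of type 2B fibers, had 15780.0, 29354 and 33672 CPM in MIGIRKO, against 79074, 79056 and 73443 CPM in IRIGFRlox, a change of -1.47 ± 0.21 (adjusted p = 3.99e-06). Pvalb, parvalbumin, the calcium buffer of the fastest fibers, had 1279, 2292 and 4317 CPM in MIGIRKO, against 9474, 11596 and 7511 CPM in IRIGFRlox, a change of -1.95 ± 0.39 (adjusted p = 3.93e-04). Every MIGIRKO library lay below every control for both. Mybpc2, Actn3, Atp2a1 and Tpm1, which encode a fast myosin-binding protein, the fast alpha-actinin, the fast calcium pump and a tropomyosin, fell by 1.29, 1.09, 1.02 and 1.36. Of 18 tested genes none was called higher and 13 lower (median -1.09). With library totals 3 were called higher and 7 lower (median -0.60). Myh1 and Myh2, the myosins of types 2X and 2A, were not called (0.21 ± 0.26 and 0.71 ± 0.34, adjusted p = 0.568 and 0.102), but Myh2 was called without MIGIRKO 6 (0.86, adjusted p = 0.0379). Tnnt3, the fast troponin T, was not called (-0.95 ± 0.44, adjusted p = 0.0914), except without MIGIRKO 1 (-1.20, adjusted p = 0.0342), with the 2 groups alone and with all 12 floxed libraries as control.

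Slow fiber genes went both ways. Of 18 tested 6 were called higher and 3 lower, and the median of -0.26 was 0.23 with library totals. Myh7, slow myosin, had 212, 344 and 483 CPM in MIGIRKO, against 272, 873 and 426 CPM in IRIGFRlox and was not called (-0.58 ± 0.33, adjusted p = 0.175), and its change was 0.01 without IRIGFRlox 2. Myl2, a slow light chain, had 6.58, 9.45 and 73.1 CPM in MIGIRKO, against 43.0, 143 and 82.3 CPM in IRIGFRlox, a change of -2.04 ± 0.61 (adjusted p = 0.0109). The highest MIGIRKO value was that of MIGIRKO 6, and without it the change was -2.99 (adjusted p = 1.1e-04). It was not called without IRIGFRlox 2 (-1.53, adjusted p = 0.0963), the control with the highest level, nor within the runs that hold both groups (-1.54, adjusted p = 0.118) or with the 2 groups alone (adjusted p = 0.0666). Casq2, slow and cardiac calsequestrin, rose by 1.87 (adjusted p = 1.15e-04), and Actn2, the alpha-actinin of all fibers, by 1.34 (adjusted p = 0.00593). For Actn2 MIGIRKO 6, at 795 CPM, lay within the control range of 618 to 1148.5 CPM. MIGIRKO 1 to 5 lay above that range, at 1991 to 2910.5 CPM.

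Messages of several large structural proteins fell. Ttn, titin, had 8774, 9991 and 13619 CPM in MIGIRKO, against 27965, 20324 and 24396 CPM in IRIGFRlox and fell by 1.21 (adjusted p = 9.36e-06), Neb, nebulin, fell by 0.99 (adjusted p = 1.36e-04), and Myoz3, a Z-disc protein of fast fibers, by 1.61 (adjusted p = 7.96e-05). Acta1, skeletal actin, had 17142, 22236 and 25572 CPM in MIGIRKO, against 30346, 29615 and 27094 CPM in IRIGFRlox and was not called (-0.39 ± 0.19, adjusted p = 0.112). Of 28 scaffold genes 1 was called higher and 14 lower, with a median of -0.46 that was 0.03 with library totals, when 9 were called higher and 8 lower. Dmd, dystrophin, had 25.2, 34.4 and 89.0 CPM in MIGIRKO, against 119, 141 and 209 CPM in IRIGFRlox, a change of -1.89 ± 0.35 (adjusted p = 1.97e-04), and MIGIRKO 6 was the highest of its group. Utrn, utrophin, its relative at the synapse, had 124, 144 and 163 CPM in MIGIRKO, against 104, 99.1 and 112 CPM in IRIGFRlox and rose by 0.46 (adjusted p = 0.0235). Utrn was not called without IRIGFRlox 1 (0.45, adjusted p = 0.0736), without IRIGFRlox 2 (0.42, adjusted p = 0.0903), within the runs that hold both groups (0.41, adjusted p = 0.101) or without a filter (adjusted p = 0.0645). Nos1, the neuronal nitric oxide synthase held at the membrane by dystrophin, fell by 1.44, and Capn3, a muscle protease, by 1.25. Of 24 genes of the dystrophin complex and sarcolemma 4 were called higher and 12 lower, with a median of -0.40 that was 0.10 with library totals (9 and 5 called).

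Genes of excitation and calcium release fell more often than they rose under TMM scaling. Ryr1, the calcium release channel of skeletal muscle, had 3255, 3724 and 4967 CPM in MIGIRKO, against 12122, 9976 and 7934 CPM in IRIGFRlox and fell by 1.34 (adjusted p = 9.27e-06), while Ryr3, the form of early muscle, had 6.03, 18.6 and 24.4 CPM in MIGIRKO, against 6.41, 2.87 and 4.92 CPM in IRIGFRlox and rose by 1.81 (adjusted p = 0.00376), and MIGIRKO 6, the lowest of its group, lay below the highest control. Cacna1s, the voltage sensor that opens Ryr1, fell by 1.04, Stac3, its partner, by 1.60, and Jph2, junctophilin, by 1.27. Mrln, myoregulin, the calcium pump inhibitor of adult fast muscle, had 9.13, 11.9 and 20.7 CPM in MIGIRKO, against 62.1, 66.0 and 90.5 CPM in IRIGFRlox and fell by 2.47 (adjusted p = 2.59e-07), in contrast to Sln. Of 33 genes of calcium release and uptake 6 were called higher and 18 lower (median -0.55, with library totals -0.05, 10 higher and 13 lower). Among channels and pumps 5 were called higher and 12 lower of 27, with a median of -0.26 that was 0.24 with library totals (10 and 9 called). Clcn1, the chloride channel that steadies the resting membrane, fell by 1.13 (adjusted p = 3.25e-06), Scn4b, a sodium channel subunit, by 1.80 (adjusted p = 1.24e-08), and Kcnc4, a potassium channel, by 1.60. Atp1b4, a muscle protein of the sodium pump family, rose by 2.18 (adjusted p = 7.81e-05).

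Insulin moves glucose into fibers and into glycogen, and most genes of glycogen turnover were lower in MIGIRKO. Ppp1r3c, which targets a phosphatase to glycogen and favours its synthesis, had 123, 232 and 336 CPM in MIGIRKO, against 1509.5, 1076 and 876 CPM in IRIGFRlox, a change of -2.36 ± 0.35 (adjusted p = 9.07e-06). Phka1 and Phkb, subunits of phosphorylase kinase, which starts glycogen breakdown, fell by 1.80 and 1.51 (adjusted p = 4.01e-06 and 6.04e-06). Pgm1, which links glucose-1-phosphate to glycolysis, fell by 1.45 (adjusted p = 3.3e-06). Gys1, glycogen synthase, fell by 0.65 (adjusted p = 5.82e-04), but was not called with library totals (-0.16, adjusted p = 0.276). Of 16 tested genes 2 were called higher and 12 lower (median -1.10), and with library totals 9 were still called lower (median -0.61).

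Of 25 genes of glycolysis and lactate 1 was called higher and 16 lower (median -0.83), with library totals 5 and 11 (median -0.34). Pkm, pyruvate kinase, had 1294, 1839.6 and 2361 CPM in MIGIRKO, against 4822, 4397 and 3305 CPM in IRIGFRlox and fell by 1.20 (adjusted p = 5.01e-05). Pfkm, Aldoa, Eno3 and Ldha, for phosphofructokinase, aldolase, enolase and lactate dehydrogenase, fell by 0.93, 0.95, 0.98 and 1.09. Slc16a3, the transporter that exports lactate, had 38.1, 83.9 and 118 CPM in MIGIRKO, against 303, 299 and 215 CPM in IRIGFRlox and fell by 1.69 (adjusted p = 2.74e-05). Gapdh was not called (-0.33 ± 0.24, adjusted p = 0.305). Slc2a4, GLUT4, had 495, 721 and 908 CPM in MIGIRKO, against 1249, 1269 and 1167 CPM in IRIGFRlox and fell by 0.77 (adjusted p = 0.0012), and Hk2, the hexokinase of insulin-sensitive tissue, fell by 0.82 (adjusted p = 4.99e-04). Neither was called with library totals (-0.28 and -0.33, adjusted p = 0.111 and 0.0782). In glucose uptake as a whole 4 of 18 genes were called higher and 6 lower (median -0.02, with library totals 9 and 3).

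The creatine and adenylate systems, which buffer ATP, had 2 genes called higher and 9 lower of 15 (median -0.87, with library totals -0.38, 4 and 8 called). Ckm, muscle creatine kinase, had 2546, 4886 and 7943 CPM in MIGIRKO, against 14004, 12945 and 13637 CPM in IRIGFRlox and fell by 1.46 (adjusted p = 9.62e-05). Ak1, adenylate kinase, fell by 1.31, Ampd1, AMP deaminase, by 1.04, and Ckmt2, the mitochondrial creatine kinase, by 0.97. Gatm, which starts creatine synthesis, rose by 1.72 (adjusted p = 6.34e-04).

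Genes of oxidative metabolism were lower in every complex of the respiratory chain under TMM scaling, while most of these calls were lost with library totals. For the respiratory chain 21 of 36 complex I subunits, 5 of 8 complex II genes, 10 of 15 complex III genes, 11 of 32 complex IV genes and 10 of 21 ATP synthase genes were called lower, and of these lists only complex IV had a gene called higher, 1. Their medians were -0.81, -0.53, -0.78, -0.66 and -0.60. With library totals the medians kept their sign, at -0.33, -0.04, -0.29, -0.17 and -0.11, but 5, 0, 2, 4 and 1 genes were called lower and 0, 1, 0, 5 and 0 higher. Sdha of complex II, Cyc1 of complex III, Cox5a of complex IV and Atp5a1 of ATP synthase fell by 0.73, 0.91, 0.93 and 0.93, and Sdha was not called with library totals (-0.23, adjusted p = 0.0863). Messages of the mitochondrial genome were called lower in 7 of 13 cases, with none called higher (median -0.92). With library totals 5 were called lower and 0 higher (median -0.43). The mitochondrial genome took 3.20% to 5.09% of counts in MIGIRKO and 3.86% to 7.19% in IRIGFRlox. Complex I assembly genes were called lower in 11 of 19 cases and supercomplex factors in 4 of 12 (medians -0.51 and -0.55), with none called higher, and with library totals in 3 and 0, with 1 of each called higher.

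The pyruvate and TCA genes were called lower in 26 of 37 cases and higher in 1 (median -0.64), and with library totals lower in 7 and higher in 2 (median -0.15). Slc25a12, the aspartate-glutamate carrier of the malate shuttle, had 185, 274 and 316 CPM in MIGIRKO, against 735, 669 and 786 CPM in IRIGFRlox and fell by 1.46 (adjusted p = 1.98e-07). Mdh2 and Pdhx, malate dehydrogenase and a pyruvate dehydrogenase subunit, fell by 1.00 and 1.02. Pdk4, the kinase that shuts pyruvate dehydrogenase in fasting, had 750.3, 1139 and 2182 CPM in MIGIRKO, against 1679.8, 679.8 and 659 CPM in IRIGFRlox and was not called (0.35 ± 0.39, adjusted p = 0.517), and its change was 0.94 without IRIGFRlox 1. Of 25 genes of branched-chain amino acid oxidation none was called higher and 15 lower, with a median of -0.48 that was 0.00 with library totals (3 and 5 called). Bckdha, a subunit of the enzyme that commits these amino acids to oxidation, and Bckdk, the kinase that inhibits it, fell by 0.96 and 1.06. In fatty acid oxidation 2 of 30 genes were called higher and 13 lower; the median of -0.47 was 0.02 with library totals (5 and 1 called). Cpt2, which completes the entry of fatty acids into mitochondria, fell by 0.78 (adjusted p = 1.59e-05). Acsl1, which activates fatty acids, was not called (0.26 ± 0.16, adjusted p = 0.204), except without MIGIRKO 6 (0.37, adjusted p = 0.0327) and with library totals (0.75). Bdh1, an enzyme of ketone body use, had 4.78, 6.97 and 14.4 CPM in MIGIRKO, against 35.3, 38.3 and 40.2 CPM in IRIGFRlox and fell by 2.24 (adjusted p = 1.71e-06).

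Mb, myoglobin, the oxygen store of fibers, had 159, 201 and 490.0 CPM in MIGIRKO, against 1107, 1554 and 1104 CPM in IRIGFRlox, a change of -2.35 ± 0.26 (adjusted p = 1.62e-07), and MIGIRKO 6 was the highest of its group. Rxrg, a nuclear receptor of muscle, had 6.20, 8.15 and 24.4 CPM in MIGIRKO, against 83.0, 77.9 and 65.0 CPM in IRIGFRlox, a change of -2.74 ± 0.34 (adjusted p = 1.3e-06). The groups did not overlap for either gene. Esrra, which activates oxidative genes, fell by 1.03 (adjusted p = 9.26e-05), and Perm1, a muscle regulator of the same program, by 1.00 (adjusted p = 3.11e-05). Ppargc1a, PGC-1alpha, the coactivator most tied to mitochondrial biogenesis, had 47.9, 71.7 and 104 CPM in MIGIRKO, against 66.2, 67.3 and 86.6 CPM in IRIGFRlox and was not called (0.00 ± 0.24, adjusted p = 0.995). Prkag3, the gamma3 subunit of AMP kinase in fast fibers, had 68.5, 90.8 and 152 CPM in MIGIRKO, against 403, 281 and 257 CPM in IRIGFRlox and fell by 1.68 (adjusted p = 2.63e-05). Of 29 regulators of the oxidative program 3 were called higher and 13 lower, with a median of -0.37 that was 0.12 with library totals (8 and 8 called).

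Mitochondrial shape genes were called lower in 16 of 25 cases and quality control genes in 12 of 19, with none called higher (medians -0.52 and -0.52), and with library totals in 4 and 2, with 1 and 2 higher. Opa1, which fuses the inner membrane, had 108, 126 and 157 CPM in MIGIRKO, against 226, 239.7 and 305 CPM in IRIGFRlox and fell by 0.99 (adjusted p = 3.41e-06), and Mfn2, which fuses the outer, by 0.86 (adjusted p = 2.81e-05). Genes of coenzyme Q and heme were called lower in 14 of 26 cases (median -0.59, with library totals 3 and 2), with Coq9, a factor of coenzyme Q synthesis, down by 1.19 (adjusted p = 1.42e-06). The mitochondrial ribosome, DNA and transcription genes, and import had 23 of 77, 7 of 19 and 9 of 27 genes called lower and none higher. Their medians of -0.41, -0.36 and -0.41 turned to 0.08, 0.14 and 0.08 with library totals, when 0, 1 and 1 were called lower and 4, 2 and 1 higher. Antioxidant enzymes were called higher in 7 and lower in 4 of 34 cases (median 0.10, with library totals 15 and 1). These shares were 20.6% and 11.8%, against 17.0% and 16.7% of all genes. Sod2, the mitochondrial superoxide dismutase, had 159.6, 175 and 244 CPM in MIGIRKO, against 356, 384 and 447 CPM in IRIGFRlox and fell by 1.05 (adjusted p = 1.88e-06).

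**Figure D3:**
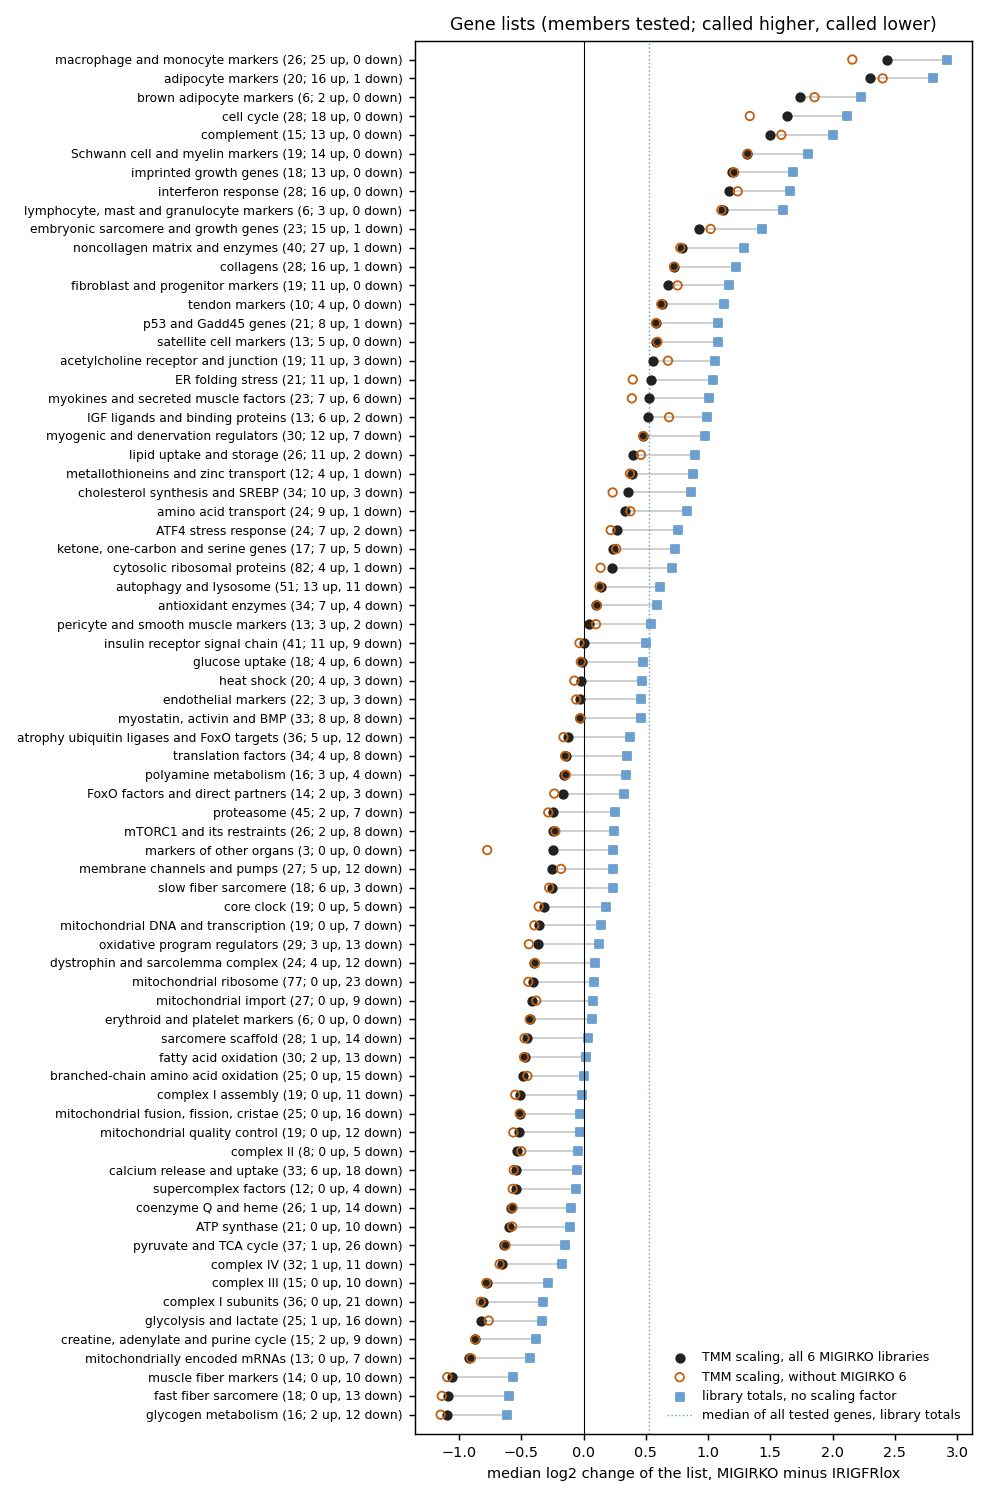
Median log2 change (MIGIRKO minus IRIGFRlox) of each of 73 gene lists with the main TMM scaling (filled), without MIGIRKO 6 (open) and with library totals (squares). Macrophage markers lie at the top (median 2.43) and glycogen genes at the bottom (median -1.10), and library totals move every list to the right, by about the shift of all genes (0.49).

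Where edgeR called no gene of a list in 1 direction, DESeq2 called none in that direction either, except for 1 blood marker. At an unadjusted p under 0.05 such genes were that marker, 1 gene of the fast sarcomere and 1 fiber marker.

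FoxO factors are held back by insulin and activate ubiquitin ligases that mark muscle proteins for breakdown, of which atrogin-1 and MuRF1 are the best known. In MIGIRKO both were lower than in the controls. Fbxo32, atrogin-1, had 169.6, 277 and 436 CPM in MIGIRKO, against 798, 395 and 945 CPM in IRIGFRlox, a change of -1.30 ± 0.27 (adjusted p = 5.35e-04), and IRIGFRlox 2, at 395 CPM, lay within the MIGIRKO range. Trim63, MuRF1, had 147, 259.5 and 626 CPM in MIGIRKO, against 723, 457 and 709.7 CPM in IRIGFRlox, a change of -1.06 ± 0.35 (adjusted p = 0.019), with MIGIRKO 6 the highest of its group. Trim63 was not called without IRIGFRlox 1 (-0.95, adjusted p = 0.083), without IRIGFRlox 3 (-0.97, adjusted p = 0.0734), within the runs that hold both groups (-0.73, adjusted p = 0.188), without a filter or with library totals (-0.58, adjusted p = 0.17). Asb2, a ligase of muscle growth control, had 144, 229 and 248 CPM in MIGIRKO, against 1296, 879.7 and 1049 CPM in IRIGFRlox, a change of -2.36 ± 0.22 (adjusted p = 8.37e-09), and Fbxo40, a ligase that in mice targets IRS1, fell by 1.55 (adjusted p = 5.4e-07). Other members rose, among them Ctsl, cathepsin L, with 200.0, 228 and 286 CPM in MIGIRKO, against 93.1, 85.5 and 84.9 CPM in IRIGFRlox (1.42 ± 0.28, adjusted p = 2.44e-04), and Fbxo30, MUSA1, with 0.62 (adjusted p = 0.00393). Of 36 tested ligases and FoxO targets 5 were called higher and 12 lower, with a median of -0.12 that was 0.37 with library totals (13 and 6 called).

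In autophagy and the lysosome 13 of 51 genes were called higher and 11 lower (median 0.14, with library totals 29 and 6). Those shares were 25.5% and 21.6%, against 17.0% and 16.7% of all genes. With library totals 56.9% were called higher, against 46.3% of all genes. Ulk1, which starts autophagy, fell by 0.97 (adjusted p = 4.73e-05), Tfeb, a regulator of lysosomal genes, by 1.16 (adjusted p = 8.74e-04), and Optn, a receptor for cargo, by 1.26 (adjusted p = 2e-05). The proteasome had 2 genes called higher and 7 lower of 45, with a median of -0.24 that was 0.25 with library totals (11 and 1 called). The share of 15.6% called lower lay near the 16.7% of all genes. Psme4, the activator PA200, fell by 1.43 (adjusted p = 1.42e-05).

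Adult muscle uses its own forms of some translation proteins, and in 2 such pairs the muscle form fell while the general form rose. Eef1a1, the elongation factor of most tissues, had 1292, 1886 and 2375 CPM in MIGIRKO, against 328, 406 and 414 CPM in IRIGFRlox, a change of 2.33 ± 0.33 (adjusted p = 4.52e-06). Eef1a2, the form of adult muscle and neurons, had 255, 406 and 534 CPM in MIGIRKO, against 964, 1055 and 871 CPM in IRIGFRlox, a change of -1.30 ± 0.21 (adjusted p = 2.57e-05). Rpl3, a general ribosomal protein, had 50.8, 69.9 and 91.2 CPM in MIGIRKO, against 20.3, 30.6 and 20.3 CPM in IRIGFRlox (1.57 ± 0.35, adjusted p = 9.71e-04), while Rpl3l, its muscle form, had 87.0, 149 and 189 CPM in MIGIRKO, against 305, 375 and 244 CPM in IRIGFRlox (-1.10 ± 0.21, adjusted p = 2.02e-04). In each pair the general form rose, the muscle form fell and the groups did not overlap, beside 29.9% of all tested genes. Each direction was the same with library totals. Eef1a1 and Rpl3 have many processed copies in the genome, among which the authors' counting could split reads. Of 82 cytosolic ribosomal protein genes 4 were called higher and 1 lower (median 0.23, with library totals 32 and 1). The 32 were 39.0% of the list, against 46.3% of all genes called higher with library totals. Of 34 translation factors 4 were called higher and 8 lower (2 and 8 without MIGIRKO 6), with a median of -0.14 that was 0.35 with library totals (17 and 2 called).

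The kinase complex mTORC1, which drives growth below Akt, had 2 genes called higher and 8 lower of 26, with a median of -0.25 that was 0.25 with library totals (6 and 3 called). Deptor, an inhibitor of mTOR, had 165, 293 and 388 CPM in MIGIRKO, against 177, 139.9 and 164 CPM in IRIGFRlox and rose by 0.85 (adjusted p = 0.00179), with MIGIRKO 6 within the range of the controls. Ddit4l, another inhibitor, had 114, 135 and 158 CPM in MIGIRKO, against 505, 333 and 437 CPM in IRIGFRlox and fell by 1.66 (adjusted p = 3.61e-05), and Rragd, a GTPase that recruits mTORC1 to lysosomes, fell by 1.18 (adjusted p = 2.63e-06).

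Polyamines are made from ornithine and decarboxylated S-adenosylmethionine, and genes at both ends of the pathway changed. Amd1 had 27.6, 42.0 and 96.8 CPM in MIGIRKO, against 857, 546 and 920.1 CPM in IRIGFRlox, a change of -3.89 ± 0.48 (adjusted p = 1.3e-06), and the groups did not overlap. Amd2, a near-identical copy of it, changed by -3.51 ± 0.43, and reads of the pair may be split between them. Smox, spermine oxidase, had 36.0, 80.7 and 109.8 CPM in MIGIRKO, against 386, 334 and 375 CPM in IRIGFRlox, a change of -2.22 ± 0.42 (adjusted p = 2.13e-04). Sat1, which acetylates polyamines for export, rose by 1.17 (adjusted p = 3.03e-04). Of 16 tested genes 3 were called higher and 4 lower, with a median of -0.15 that was 0.34 with library totals (5 and 3 called) and also changed sign with all 12 floxed libraries as control.

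Amino acid transporters were called higher in 9 of 24 cases and lower in 1 (median 0.34). Slc38a4, a system A transporter that is imprinted in mice, fell by 1.30 (adjusted p = 3.65e-06), in contrast to Slc38a1. Psat1, of serine synthesis, had 13.3, 18.7 and 26.8 CPM in MIGIRKO, against 5.50, 2.87 and 2.35 CPM in IRIGFRlox (2.38 ± 0.55, adjusted p = 0.00154), and Asns, asparagine synthetase, rose by 1.77 (adjusted p = 8.55e-04). Both are known targets of the stress factor Atf4, whose own message was not called (-0.15 ± 0.18, adjusted p = 0.546). Of 24 genes of that response 7 were called higher and 2 lower (median 0.27, with library totals 11 and 1), and of 17 ketone, one-carbon and serine genes 7 and 5 (median 0.24, with library totals 9 and 1). The shares were 29.2% and 8.33%, and 41.2% and 29.4%, against 17.0% and 16.7% of all genes. With library totals 45.8% and 52.9% of these lists were called higher, against 46.3% of all genes. ER folding genes were called higher in 11 of 21 cases and lower in 1 (median 0.54, and 0.39 without MIGIRKO 6). Pdia4, a disulfide isomerase, rose by 1.15 (adjusted p = 0.00158), while Hspa5, BiP, was not called (0.54 ± 0.24, adjusted p = 0.0874) and was highest in MIGIRKO 6 at 513 CPM. Heat shock genes were called higher in 4 and lower in 3 of 20 cases (median -0.02, with library totals 11 and 0). The shares of 20.0% and 15.0% lay near the 17.0% and 16.7% of all genes. With library totals 55.0% were called higher, against 46.3% of all genes.

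Of 21 p53 and Gadd45 genes 8 were called higher and 1 lower (median 0.58). Cdkn1a, the p21 inhibitor of the cell cycle, had 105, 118 and 149 CPM in MIGIRKO, against 58.6, 35.8 and 34.0 CPM in IRIGFRlox (1.50 ± 0.38, adjusted p = 0.0034), and Gadd45a, a stress gene of denervated muscle, had 18.1, 34.2 and 47.5 CPM in MIGIRKO, against 6.56, 8.42 and 10.5 CPM in IRIGFRlox (1.97 ± 0.49, adjusted p = 0.00296). Eda2r, a receptor of the TNF family, rose by 1.47 (adjusted p = 1.02e-04). Tigar, a phosphatase of sugar metabolism, had 39.2, 47.0 and 76.1 CPM in MIGIRKO, against 169, 181 and 200.2 CPM in IRIGFRlox and fell by 1.89 (adjusted p = 3.67e-06), and MIGIRKO 6 was the highest of its group. Metallothionein and zinc transport genes were called higher in 4 of 12 cases and lower in 1 (median 0.39, and 2 higher without MIGIRKO 6), the lower one being Slc30a2, a zinc transporter, which had 2.16, 3.27 and 4.49 CPM in MIGIRKO, against 52.4, 40.0 and 35.5 CPM in IRIGFRlox and fell by 3.67 (adjusted p = 1.5e-09). Core clock genes were called lower in 5 of 19 cases and higher in none, with a median of -0.32 that was 0.18 with library totals (3 and 1 called), and Hlf, a clock output factor, fell by 1.43 (adjusted p = 4.56e-04).

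Most fat-cell genes rose in MIGIRKO. Adipoq, adiponectin, made by adipocytes, had 30.3, 50.8 and 70.1 CPM in MIGIRKO, against 8.85, 8.42 and 8.13 CPM in IRIGFRlox, a change of 2.55 ± 0.43 (adjusted p = 5.79e-05), which was 1.69 with all 12 floxed libraries as control. The groups did not overlap. Cfd, adipsin, Plin1, the coat protein of the fat droplet, and Cidec, which enlarges droplets, changed by 3.12 ± 0.57, 2.78 ± 0.45 and 2.91 ± 0.52. Fasn, fatty acid synthase, had 122, 412 and 1034 CPM in MIGIRKO, against 96.5, 92.2 and 66.3 CPM in IRIGFRlox, a change of 2.50 ± 0.61 (adjusted p = 0.0026), which was 1.87 within the runs that hold both groups (adjusted p = 0.0211). Acly and Elovl6, of fatty acid synthesis, rose by 1.24 and 1.99, and Pparg, which directs fat-cell development, by 1.57. Of 20 tested adipocyte markers 16 were called higher and 1 lower (median 2.30). Their summed level was 4933 to 7253 CPM in MIGIRKO 1 to 5 and 3069 CPM in MIGIRKO 6, against 3327, 3753 and 3469.6 CPM in IRIGFRlox. A sum is weighted toward the most abundant members. In MIGIRKO 6 Adipoq, Cfd and Cidec, at 32.6, 130 and 27.1 CPM, lay above the highest controls (8.85, 41.3 and 10.5 CPM). The low sum therefore does not describe each member of the list. Lipid uptake and storage genes were called higher in 11 of 26 cases and lower in 2 (median 0.40, with library totals 16 and 0), and cholesterol genes in 10 and 3 of 34 (median 0.36, with library totals 19 and 1). Brown adipocyte markers were called higher in 2 of 6 cases and lower in none (median 1.73), and their defining gene Ucp1 was not called (2.50 ± 1.44, adjusted p = 0.184), with 0, 5.55 and 19.6 CPM in MIGIRKO, against 1.22, 2.49 and 0 CPM in IRIGFRlox.

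Markers of macrophages rose in nearly the whole list, 25 of 26 called higher and none lower (median 2.43). Their summed level was 1079.6 to 2887 CPM in MIGIRKO, highest in MIGIRKO 5 and 6, against 338, 484 and 313 CPM in IRIGFRlox. Without MIGIRKO 6 21 were called (median 2.16). Lyz2, lysozyme, had 232, 388 and 855 CPM in MIGIRKO, against 71.4, 91.6 and 65.9 CPM in IRIGFRlox (2.69 ± 0.74, adjusted p = 0.00634), and Mrc1, the mannose receptor of resident macrophages, had 58.4, 72.3 and 161 CPM in MIGIRKO, against 19.1, 26.2 and 22.2 CPM in IRIGFRlox (1.97 ± 0.42, adjusted p = 7.54e-04). Cd68, a lysosomal marker, was called (2.80 ± 1.05, adjusted p = 0.0392), but not without MIGIRKO 6 (2.16, adjusted p = 0.101), MIGIRKO 5 (adjusted p = 0.0609) or any 1 of the 3 controls (adjusted p = 0.131, 0.0888 and 0.0973), nor by limma-voom or without a filter (adjusted p = 0.0952 and 0.095). Complement genes were called higher in 13 of 15 cases and interferon response genes in 16 of 28, with none lower (medians 1.50 and 1.17). C4b, the complement factor C4, had 56.8, 88.5 and 204 CPM in MIGIRKO, against 17.6, 14.2 and 18.4 CPM in IRIGFRlox (2.67 ± 0.41, adjusted p = 1.61e-05), and Cd74, the invariant chain of antigen presentation, had 175, 213 and 376 CPM in MIGIRKO, against 56.3, 79.8 and 49.4 CPM in IRIGFRlox (1.97 ± 0.38, adjusted p = 2.23e-04). B2m and H2-D1, of class I antigen presentation, rose by 1.36 and 1.28. Of 6 tested lymphocyte, mast cell and granulocyte markers 3 were called higher, among them Ptprc, CD45, which all blood leukocytes carry (2.51 ± 0.69, adjusted p = 0.00636).

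Cell cycle genes were called higher in 18 of 28 cases and lower in none (median 1.63), but in 9 without MIGIRKO 6 (median 1.33). The inhibitors Cdkn1a and Cdkn1c are counted among the 18. In the list's summed level they had 149 and 219 CPM of 798 CPM in MIGIRKO 1. In MIGIRKO 6 they had 117 and 49.3 CPM of 805 CPM, and in IRIGFRlox 1 58.6 and 38.8 CPM of 370 CPM. Ccna2, cyclin A2, changed by 3.94 ± 1.09 (adjusted p = 0.00634). Top2a, a topoisomerase of dividing cells, was 6.26, 8.16 and 48.9 CPM in MIGIRKO, against 1.53, 1.72 and 1.50 CPM in IRIGFRlox and changed by 3.43 ± 1.21 (adjusted p = 0.0294), and was not called without MIGIRKO 6 (2.77, adjusted p = 0.0705), nor without IRIGFRlox 1, 2 or 3 (adjusted p = 0.095, 0.0792 and 0.0839), by limma-voom (adjusted p = 0.0952) or without a filter (adjusted p = 0.0689). Mki67, the Ki-67 antigen, was at 35.5 CPM in MIGIRKO 6 and 3.21 to 11.8 CPM in MIGIRKO 1 to 5, against 1.07, 2.10 and 0.642 CPM in IRIGFRlox, and was not called (3.04 ± 1.27, adjusted p = 0.0664), with a change of 2.11 without MIGIRKO 6 (adjusted p = 0.186). Summed macrophage markers were highest in MIGIRKO 5 and 6 and Mki67 in the same libraries, and the part of those cells in the cell cycle result was not tested.

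Genes of nerve sheath and connective tissue rose as well. Schwann cell and myelin markers were called higher in 14 of 19 cases and lower in none (median 1.31), with a summed level of 495 to 872 CPM in MIGIRKO, against 248, 347 and 241 CPM in IRIGFRlox. Sox10, the defining transcription factor of these cells, was not called (0.47 ± 0.48, adjusted p = 0.482). Fibroblast and progenitor markers were called higher in 11 of 19 cases (median 0.68) and summed to 4919.5 to 6671 CPM in MIGIRKO, against 3479.6, 5050.2 and 2874 CPM in IRIGFRlox, of which IRIGFRlox 2 lay above the lowest MIGIRKO library. Pdgfra, which defines fibro-adipogenic progenitors, rose by 0.84 (adjusted p = 7.07e-04), and Lum, lumican, by 1.60 (adjusted p = 3.9e-06). Postn, periostin, a matrix protein of repair, had 56.3, 109 and 194 CPM in MIGIRKO, against 12.4, 16.1 and 12.4 CPM in IRIGFRlox (3.11 ± 0.58, adjusted p = 2.12e-04), and Timp1, an inhibitor of matrix proteases, had 6.19, 11.0 and 59.2 CPM in MIGIRKO, against 0.916, 1.53 and 1.50 CPM in IRIGFRlox (3.93 ± 0.81, adjusted p = 5.17e-04, and 3.21 without MIGIRKO 6). Collagens were called higher in 16 of 28 cases and lower in 1, other matrix genes in 27 and 1 of 40, and tendon markers in 4 and 0 of 10 (medians 0.72, 0.79 and 0.63). Col3a1, collagen of soft tissue, rose by 1.56 (adjusted p = 0.00264), whereas Col1a1, the main collagen of tendon and scar, was not called (0.63 ± 0.37, adjusted p = 0.185), except without IRIGFRlox 2, its highest control (1.45, adjusted p = 0.0065), and with library totals (1.13).

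Of 22 endothelial markers 3 were called higher and 3 lower, 13.6% each way against 17.0% and 16.7% of all genes (median -0.03, with library totals 0.46, 10 and 0 called), and their summed level was 1358 to 1529 CPM in MIGIRKO, against 1508, 1509 and 1529.5 CPM in IRIGFRlox. Pecam1, CD31, averaged 62.8 ± 5.68 CPM in MIGIRKO and 58.2 ± 8.14 CPM in IRIGFRlox (SD) and was not called (0.11 ± 0.13, adjusted p = 0.536). Cdh5, VE-cadherin, was not called (-0.29 ± 0.12, adjusted p = 0.0548), but was without MIGIRKO 6 (-0.34, adjusted p = 0.0283) and without IRIGFRlox 1 (-0.39, adjusted p = 0.0294). Vcam1, an adhesion molecule of inflamed vessels and satellite cells, had 24.2, 27.1 and 32.1 CPM in MIGIRKO, against 7.48, 5.36 and 7.06 CPM in IRIGFRlox and rose by 2.04 (adjusted p = 1.65e-05). Pericyte and smooth muscle markers were called higher in 3 and lower in 2 of 13 cases (median 0.04, with library totals 8 and 0). Their shares were 23.1% and 15.4%, against 17.0% and 16.7% of all genes. Muscle fiber markers were called lower in 10 of 14 cases, as with library totals, where 2 were also called higher, and summed to 90502 to 143727 CPM in MIGIRKO, against 254928, 261007 and 235130.4 CPM in IRIGFRlox. Markers of other organs and of blood, 3 and 6 tested, had no gene called, with 0 and 1 at an unadjusted p under 0.05 by edgeR and 0 and 1 called by DESeq2, and their medians of -0.25 and -0.43 turned to 0.24 and 0.07 with library totals. The part that other cell types take in the changes of widely expressed genes was not tested.

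**Figure D4:**
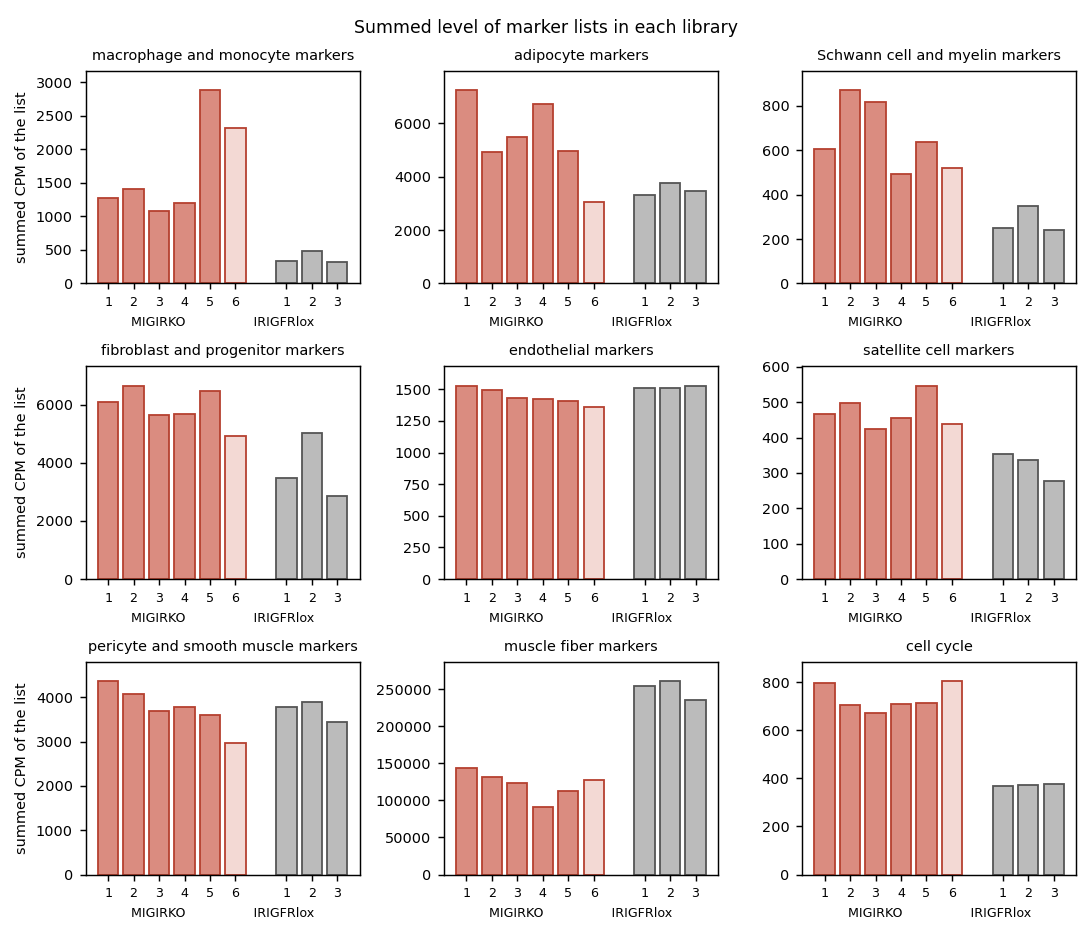
Summed CPM of 9 marker lists in each library, MIGIRKO 1 to 6 left (6 in pale) and IRIGFRlox 1 to 3 right, with axes from 0. Summed macrophage, Schwann cell and cell cycle lists are higher in every MIGIRKO library, the last with the inhibitors Cdkn1a and Cdkn1c included. Endothelial sums overlap (1358 to 1529 CPM in MIGIRKO, 1508, 1509 and 1529.5 CPM in IRIGFRlox). The adipocyte sum is low in MIGIRKO 6, though Adipoq, Cfd and Cidec lie above every control there. Fiber sums are lower throughout.

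The design allows the MIGIRKO change to be set against the changes in mice of 3 other genotypes, each over the floxed controls of its own colony, by a test of the difference of the changes. The libraries were 4 MIRKO against 3 IRlox, 5 MIGF1RKO against 4 IGFRlox and 7 QKO against 2 Qlox, with no library shared with MIGIRKO or IRIGFRlox. Against the MIRKO change edgeR called no gene (0.00%), with 1421 at an unadjusted p under 0.05 and 8 called by DESeq2. Without the libraries labelled MIGIRKO 6 and MIRKO 4, each of which resembled the other genotype, 457 of 13466 genes were called (3.39%), 172 higher (1.28%) and 285 lower (2.12%). Against the MIGF1RKO change 1171 genes were called (8.58%), 501 with a higher (3.67%) and 670 with a lower MIGIRKO change (4.91%). For the QKO change minus the MIGIRKO change 786 genes were called (5.76%), 493 higher (3.61%) and 293 lower (2.15%).

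Grb14 changed by -3.09 in MIGIRKO, -1.77 in MIRKO, -0.59 in MIGF1RKO and -0.09 in QKO. Its MIGIRKO change differed from the MIGF1RKO change by -2.50 (adjusted p = 9.67e-04), and the QKO change differed from it by 3.00 (adjusted p = 4.37e-04). The same held for Igfbp5, Mb, Myh4, Slc15a5, Mstn, Adipoq and Eef1a1, for which both differences were called. Mb, for example, changed by -2.35 in MIGIRKO, -1.67 in MIRKO, -0.21 in MIGF1RKO and 0.10 in QKO, and Adipoq by 2.55, 0.42, -0.02 and -0.61 in the same order. For Myog, Runx1, Amd1, Fasn and Fbxo32 only the difference from MIGF1RKO was called among these tests, and for Mss51 only that between QKO and MIGIRKO. In the fit of all libraries, in which no gene was called against MIRKO, none of these 17 was called. Without the libraries labelled MIGIRKO 6 and MIRKO 4 the MIGIRKO change differed from the MIRKO change for 15 of the 17, with a lower MIGIRKO change in 8, and Mss51 and Runx1 were not called. Over all genes 3.39% were called in that fit, and the 17 were chosen among genes named for the MIGIRKO comparison. Mstn, for example, then changed by -3.06 in MIGIRKO and -0.84 in MIRKO (adjusted p of the difference 0.00448). These libraries were left out for their distances, so these values are a description, and whether their labels are exchanged was not tested. With all libraries Chrna1, Igf2 and H19 had no called difference, with MIGIRKO changes of 3.51, 4.51 and 3.64 beside QKO changes of 1.16, 1.29 and 1.08 (adjusted p of the differences 0.092, 0.0558 and 0.0593). Fbxo32 changed by -1.30 in MIGIRKO, 0.14 in MIRKO, 0.08 in MIGF1RKO and -0.73 in QKO.

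**Figure D5:**
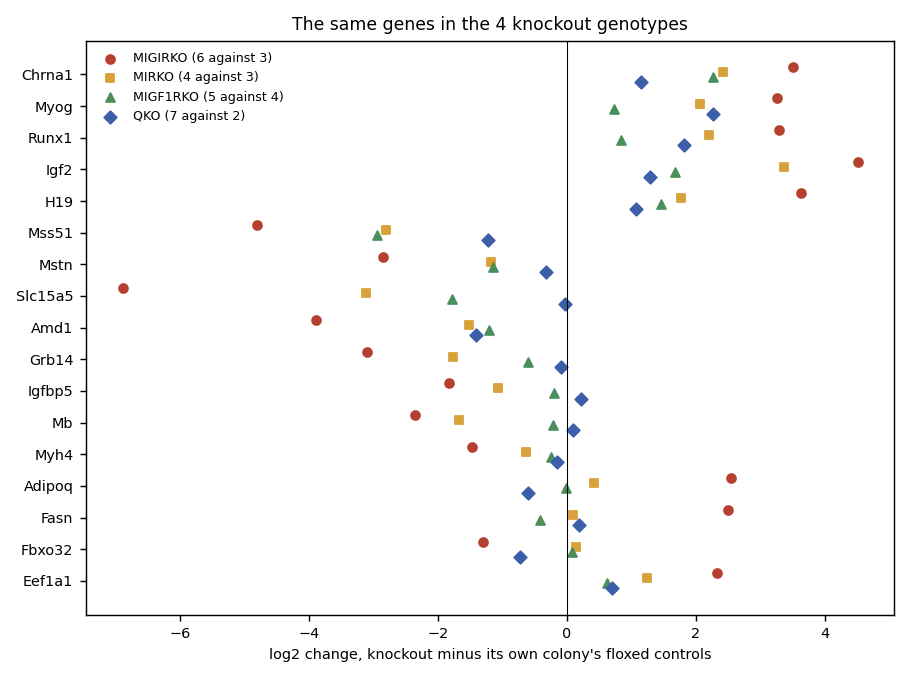
Log2 change of each knockout over the floxed controls of its own colony for 17 genes (MIGIRKO red circles, MIRKO orange squares, MIGF1RKO green triangles, QKO blue diamonds), drawn without errors. MIGIRKO lies furthest from 0 for each gene shown, for example -3.09 for Grb14 against -0.09 in QKO. The 17 genes were chosen among those named for the MIGIRKO comparison, many by the size or p of that change. Their position is therefore in part set by the choice.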

How the data were processed

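RNA of powdered quadriceps and gastrocnemius was extracted with Trizol and sequenced with a directional total RNA kit, per the labels' protocols. Reads were aligned to GRCm38.p4 with STAR and counted with featureCounts, per the submitters' processing notes, while the versions and the strand setting are not given in the sources used here. The deposited table holds raw counts of 46071 genes in 34 libraries, of which 45229 IDs matched a GENCODE M21 symbol, and every row names a gene.

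The counts were tested with edgeR 4.0.16 in R 4.3.3, with a robust quasi-likelihood fit of 8 group means over the 34 libraries, TMM scaling, the genes kept by filterByExpr and Benjamini-Hochberg adjustment, called at an adjusted p under 0.05. The code was tested on simulated counts. DESeq2 1.42.0 and limma-voom (limma 3.58.1) were alternatives, beside other scaling and filters, library runs, other controls and each library left out in turn. A list is described by its called members and its median beside all tested genes, with no test of the list. Named genes were the targeted genes, the FoxO genes and Nnt, the 15 called genes with the largest changes in each direction above a log2 CPM of 1 on average, the key members and 5 smallest p of each of 73 lists, of which 204 genes are named, and some results are not reported here. Members and lists were chosen with earlier results of these data known. No pair of libraries within a group agreed within sampling noise, since the lowest chi-square per degree of freedom was 13.2. Intervals and floors cover counting error only. Sequences are from RefSeq, with windows on GRCm38.p6.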

Additional observations from a re-analysis of the deposited data

Results flagged for a closer look

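Among the 204 named genes, 22 had 1 MIGIRKO library far from the other 5 of its group by Dixon's test, which chance gives in about 1 of 20 groups, and 15 of these were in MIGIRKO 6. In that library Igf2 was at 69.8 CPM, against 563 CPM for the next lowest, and Acsl1 was at 276 CPM, against 466 CPM. It was the highest library for 13 genes, of which 11 had fallen in MIGIRKO: Mb stood at 490.0 CPM (next highest 252), Rxrg at 24.4 (12.7), Dmd at 89.0 (44.3), Xirp2 at 2879 (1436), Tigar at 76.1 (48.3), Trim63 at 626 (302), Myl2 at 73.1 (23.3), Cdh4 at 5.89 (1.06), Slc15a5 at 0.959 (0.151), Amd2 at 4.93 (1.55) and Hk2 at 503 (389). The other two were Hspa5 at 513 CPM (282) and Mki67 at 35.5 CPM (11.8), which were not called. For Igf2 and the 11 genes the value of MIGIRKO 6 lay on the side of the controls. MIGIRKO 4 was highest for Atp1b4 (60.1 CPM), Casq2 (83.9 CPM) and Sdha (801 CPM) and lowest for Optn (29.4 CPM). MIGIRKO 2 was highest for Clcn1 (161 CPM) and Esrra (59.1 CPM), and MIGIRKO 1 for Tnnt3 (13821 CPM).

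For Insr the MIGIRKO change minus the MIGF1RKO change was -1.51, and for Igf1r the QKO change minus the MIGIRKO change was -1.09. The 17 other genes compared between genotypes were chosen among those named for the MIGIRKO comparison. Of these, the MIGIRKO change minus the MIGF1RKO change was called by edgeR's test of the difference for 13. It was -5.11 for Slc15a5, -2.69 for Amd1, -2.50 for Grb14, -2.14 for Mb, -1.70 for Mstn, -1.63 for Igfbp5, -1.38 for Fbxo32 and -1.23 for Myh4. It was 2.92 for Fasn, 2.57 for Adipoq, 2.54 for Myog, 2.45 for Runx1 and 1.71 for Eef1a1. The QKO change minus the MIGIRKO change was called for 9, at 6.86 for Slc15a5, 3.58 for Mss51, 3.00 for Grb14, 2.52 for Mstn, 2.45 for Mb, 2.04 for Igfbp5, 1.31 for Myh4, -1.62 for Eef1a1 and -3.16 for Adipoq. QKO was set against 2 control libraries. The QKO changes of Slc15a5, Mss51, Adipoq and Grb14 themselves were -0.03, -1.23, -0.61 and -0.09.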

How the results depend on the processing

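Of the 176 named genes called, 163 were called under every one of the 20 alternatives that tested them, and the 13 others are given with their values in the report. The count of 4603 called genes (2321 higher, 2282 lower) became 7002 (6314 and 688) with library totals. Within the library runs that hold both groups 3032 genes were called (1434 higher), with 3 libraries a group. Leaving out 1 library at a time gave 3109 to 4542 called genes, 1375 to 2327 higher and 1734 to 2310 lower, with the lowest counts without IRIGFRlox 1. With fewer libraries the test has less to go on, and the part of IRIGFRlox 1 itself was not tested. For the difference from the MIRKO change edgeR called 0 genes, DESeq2 8 (1 higher, 7 lower), edgeR without MIGIRKO 6 13 (3 and 10) and without MIGIRKO 6 and MIRKO 4 457 (172 and 285). For the difference from the MIGF1RKO change library totals gave 2167 (1962 and 205) in place of 1171, and leaving out MIGIRKO 6 gave 1463 (612 and 851). For QKO minus MIGIRKO library totals gave 1404 (166 and 1238) in place of 786, leaving out MIGIRKO 6 gave 1201 (731 and 470), and leaving out MIRKO 4 as well gave 1342 (825 and 517). Beside the shift by the scaling, the cause of these differences was not tested. No paired analysis was possible because litters are not named and replicates carry no shared number, while a fit with the library runs as a block called 4662 genes. A fit of the 2 compared groups alone, which takes the spread from these mice only, called 4231.

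With library totals the medians of these lists were above 0 in place of below it: FoxO factors 0.32, mTORC1 0.25, branched-chain amino acids 0.0031, fatty acid oxidation 0.019, mitochondrial ribosome 0.081, mitochondrial DNA 0.14, oxidative regulators 0.12, import 0.076, atrophy ligases 0.37, proteasome 0.25, translation factors 0.35, polyamines 0.34 (0.054 with all 12 floxed libraries), slow sarcomere 0.23, scaffold 0.031, channels 0.24, dystrophin complex 0.095, clock 0.18, blood 0.068 and other organs 0.24 (0.15 within the runs that hold both groups). The slow sarcomere median ran over -0.47 to 0.15 and that of other organs over -0.78 to 0.034 when 1 library was left out, the first above 0 without IRIGFRlox 2 and the other without IRIGFRlox 1. Of genes not called, Acta1 (0.095), Atf4 (0.34), Cdh5 (0.20), Foxo1 (0.080), Gapdh (0.16), Irs1 (0.19) and Nnt (0.18) were above 0 with library totals. Igf1r, at 0.00, was -0.0001 with a CPM filter, -0.018 by limma-voom, -0.017 without a filter, -0.015 with the 2 groups alone and -0.11 without MIGIRKO 6 and MIRKO 4, and -0.11 to 0.074 with 1 library left out. Ppargc1a was -0.0016, -0.043, -0.017 and -0.014 under the first 4 of these, -0.072 with all 12 floxed libraries, and -0.12 to 0.14 with 1 library left out. With 1 library left out Chrne ran over -0.059 to 0.32, Myh7 over -0.89 to 0.0075 and Nnt over -0.71 to 0.13. With all 12 floxed libraries as control, which pool 4 floxed groups, no called named gene lost its call, but among others these called changes moved by over 1.5-fold: Sln (6.30), Hephl1 (3.70), Mymk (4.92), Lgals3 (4.25), Krt18 (3.79), Chrng (5.45), Slc15a5 (-6.26), Casq2 (1.27), Gatm (1.02), Adipoq (1.69), Cfd (2.26), Plin1 (1.88), Cidec (1.92), Fasn (1.71), Elovl6 (1.29), Lyz2 (2.05), C4b (1.66), Top2a (2.69), Ccna2 (2.59), Postn (2.26) and Vcam1 (1.40). Called changes that moved as much without 1 library were those of Odf3l2 without MIGIRKO 1 (-6.69), Mymk without IRIGFRlox 2 (7.94), which held its only control counts, Chrng (6.98) and Sln (7.37) without IRIGFRlox 1, and Cd68 (2.16), Cdh4 (-5.87), Myl2 (-2.99), Slc15a5 (-8.87), Timp1 (3.21) and Top2a (2.77) without MIGIRKO 6. Genes not called with all libraries but called with 1 left out were Acsl1 (0.37), Cdh5 (-0.34) and Myh2 (0.86) without MIGIRKO 6, Cdh5 (-0.39) without IRIGFRlox 1, Akt1 (0.51) and Col1a1 (1.45) without IRIGFRlox 2 and Tnnt3 (-1.20) without MIGIRKO 1. At a depth of 4652877 to 7581198 counts a library, 1 CPM is a handful of counts, and folds of genes near it are uncertain.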
